A study of Homo sapiens with 24 samples.

Results

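A set of 38 genes of protein folding, secretion and the unfolded protein response in the endoplasmic reticulum (ER) were followed through a drug experiment in human myeloma cells. They were taken by name from the deposited tables, which hold 26249 genes: the UPR sensors, ER chaperones and folding enzymes, the translocon, signal peptidase, a COPII coat subunit and the machinery of ER-associated degradation (ERAD). All 38 had an entry. Of these, 37 passed the filter on low values, at least 1 FPKM in at least 3 libraries, which 12418 of all genes passed. H929 and MM1S are established lines from patients with multiple myeloma, a cancer of plasma cells. H929 cells received YKL-5-124 (YKL) or DMSO at a labelled 83 nM, and MM1S cells received YKL or DMSO at a labelled 98 nM, the figure standing on the DMSO labels as well. YKL-5-124 inhibits CDK7, a kinase of the general transcription factor TFIIH. Cells in RPMI medium with serum were harvested at 6 h or at 24 h, and each of the 8 groups has 3 libraries. Each line stands for 1 patient's tumour, and line and labelled dose cannot be told apart.

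Plasma cells secrete antibody in bulk, so nearly every step from the ribosome to the Golgi is run at high capacity in them. Nascent chains enter the ER through the SEC61 channel, lose their signal peptide, and fold with the help of the Hsp70 chaperone BiP, the lectin chaperones and the disulfide isomerases. Chains that fail are returned to the cytosol and degraded by ERAD. When unfolded proteins build up, the sensors IRE1, PERK and ATF6 start the unfolded protein response (UPR). IRE1 splices the mRNA of XBP1, the transcription factor that plasma cells need for secretion, PERK slows translation and favours ATF4, and ATF6 is itself cut into a transcription factor. Reads from 3′ ends do not show the splicing of XBP1, so only total XBP1 RNA was measured.

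Summed gene FPKM per library ranged between 361698 and 2519634, while ERCC spike-in transcripts stayed nearly level across libraries. On this deposited scale a fall of all RNA moves every gene, and fewer cells and less RNA per cell cannot be told apart. Results are therefore given on the deposited scale, which is the main one, and after dividing each library by its median-of-ratios factor (rescaled), which reads a gene against the typical gene of its library. Median log2 changes of all 12418 genes as deposited were -0.06 at 6 h and -0.46 at 24 h in H929, and -0.29 at 6 h and -0.12 at 24 h in MM1S. After rescaling they were 0.07, 0.13, 0.05 and 0.05 in the same order. Spike-ins scattered more than elsewhere in MM1S YKL 6 h replicate 2 (SD 0.964 log2) and MM1S DMSO 24 h replicate 1 (SD 0.58). MM1S DMSO 24 h replicate 2 had a scale factor of 0.808, against 0.445 and 0.365 for the other libraries of that group. The lines matched part of their markers: FGFR3 averaged 26.7 FPKM in H929 DMSO libraries and 0.228 in MM1S DMSO libraries, and CCND2 averaged 2.08 and 68.4 FPKM, but ITGB7, listed as an MM1S marker, averaged 5803 FPKM in H929 and 4372 in MM1S. Of 10 plasma cell markers 9 had an entry. SDC1, TNFRSF17, PRDM1, IRF4, SLAMF7 and POU2AF1 were expressed in both lines, while CD27 and CD79A stayed under 2 FPKM. CD38 averaged 13.9 FPKM in H929 DMSO libraries and 1.26 in MM1S DMSO libraries. Of 8 T cell markers 7 had an entry, with a summed level of at most 4.69 FPKM in any library. The 7 monocyte markers summed to 15.3 to 46.7 FPKM in H929 and at most 6.84 in MM1S, mostly S100A9 and CD68, with CD14 under 1 FPKM. Within that list S100A8 was higher in H929 YKL at 24 h, where many members fell: 2.17, 3.09 and 1.89 FPKM with YKL, against 1.03, 0.109 and 0.108 with DMSO (log2 change 1.30, adjusted p = 0.000677, limma). The list's sum there was 17.5 to 31.9 FPKM with YKL, against 15.3 to 46.7 with DMSO. The 8 epithelial and fibroblast markers summed to 9.41 to 24.9 FPKM in H929 YKL 24 h libraries, against 27.3 to 30.3 in H929 DMSO 24 h libraries, and to at most 2.16 in MM1S. Most of that sum was KRT18, and EPCAM stayed under 1 FPKM. Whether RNA of other cells had a part in the results was not tested.

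Under YKL, the ER genes fell broadly in H929 at 24 h, and at 6 h HERPUD1 was the single member called in either line on the deposited scale. In H929 at 6 h, 1 of 37 tested members was lower and 0 were higher, where 1.16% of all genes tested were called lower and 1.03% higher. In H929 at 24 h, 24 were lower and 1 was higher (EIF2AK3), against 35.4% of all genes lower and 2.67% higher. In MM1S at 6 h, 1 was lower and 0 were higher, against 10% lower and 0.926% higher. In MM1S at 24 h, 4 were lower and 0 were higher, against 6.77% lower and 0.684% higher. The members' median log2 changes were -0.11, -0.88, -0.35 and -0.36 in these 4 comparisons, next to the medians of all genes given above. The calls are from limma with Benjamini-Hochberg adjustment over all 12418 genes, at an adjusted p under 0.05. Since the labels name no separate cultures, these p-values measure only the spread between samples, which may be technical.

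Library by library, every YKL value lay under every DMSO value for 28 members in H929 at 24 h (45.6% of all genes) and for 4 in H929 at 6 h (12.5% of all genes). In MM1S this held for 18 members at 6 h (36.8% of all genes) and for 10 at 24 h (14.6% of all genes). The opposite, every YKL value higher, was seen once, for SEC24D in H929 at 6 h (8.61% of all genes). It held for 0 members in H929 at 24 h, MM1S at 6 h and MM1S at 24 h, where 3.62%, 2.96% and 3.3% of all genes did so. The number of members called in H929 at 24 h, 25 in either direction, depended on single libraries: it was 14 without YKL replicate 2, the library with the lowest scale factor of its group, and 16 without DMSO replicate 2. In MM1S at 24 h it was 4 with all libraries, 0 without YKL replicate 1 or 2, 1 without YKL replicate 3, 1 without DMSO replicate 2 (a gene that rose) and 8 without DMSO replicate 3. Without both MM1S libraries of scattered spike-ins it was 2. The shares of all genes in these fits with libraries left out are not given here.

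Read against the typical gene of each library, members were called in both directions. After rescaling, 3 members were lower and 2 higher in H929 at 6 h (4.19% and 5.11% of all genes), 12 lower and 7 higher in H929 at 24 h (12.5% and 20.8%), 2 lower and 5 higher in MM1S at 6 h (7.21% and 8.25%), and 10 lower and 6 higher in MM1S at 24 h (13.3% and 14.4%). The counts of higher members in H929 at both times and in MM1S at 24 h lay near these shares of all genes. The members' median log2 changes were then 0.09, -0.04, 0.11 and -0.15. All 12 genes lower in H929 at 24 h after rescaling were also lower as deposited. HERPUD1 and HSPA5 were lower, and the ERAD ligase gene SYVN1 higher, in all 4 rescaled comparisons. HERPUD1 alone was lower in all 4 as deposited. Of the 37, 11 passed the test in none of the rescaled comparisons, among them ATF6, EDEM1, HSP90B1 and PDIA4. How many of all genes passed in all 4 or in none was not counted, so whether these numbers are unusual is not known.

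**Figure D1:**
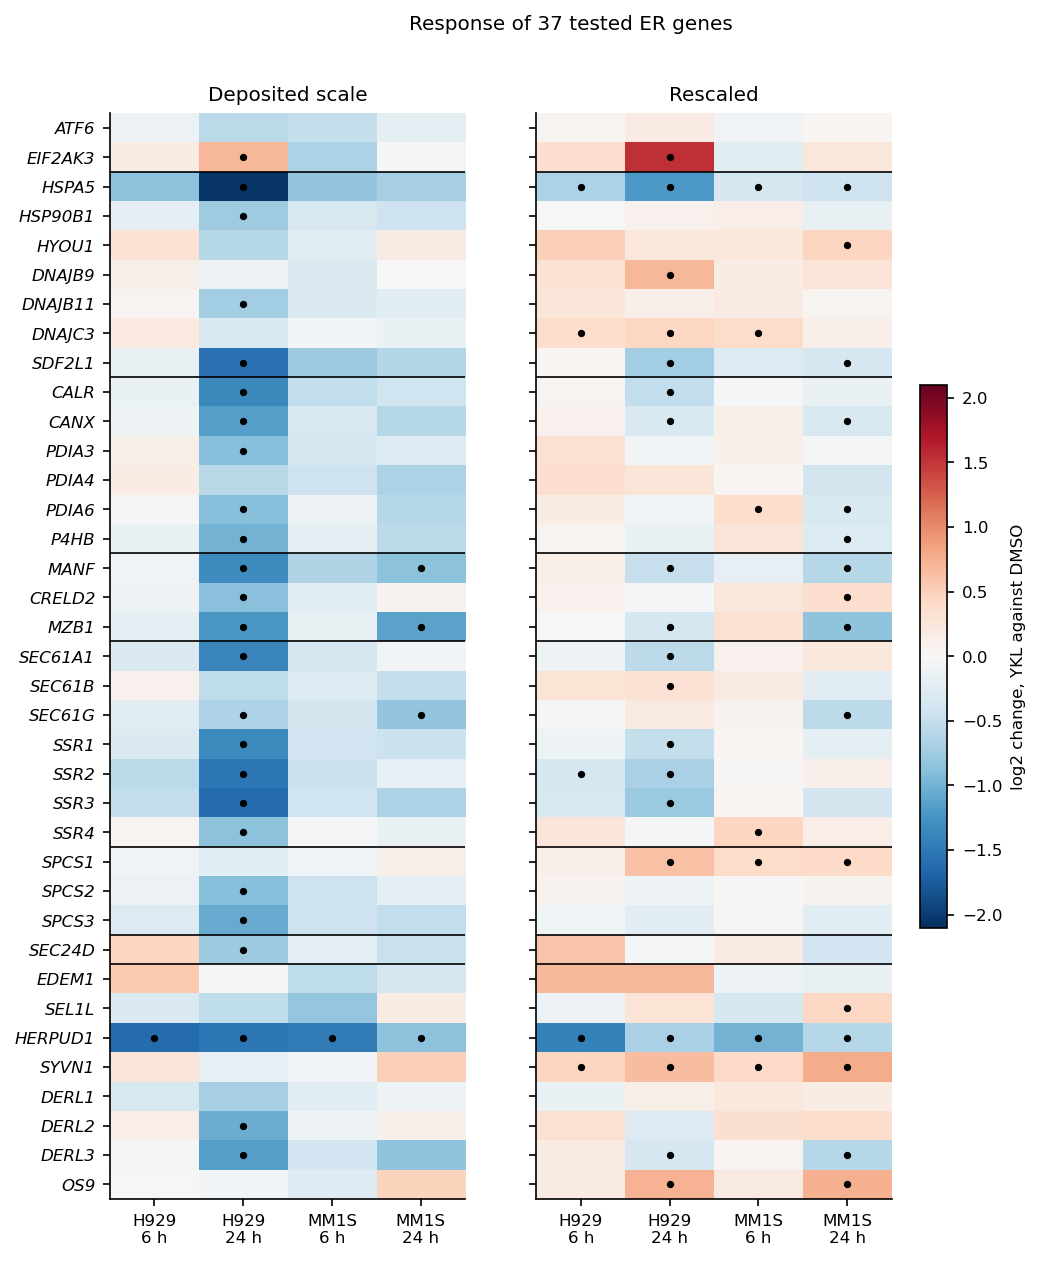
Colour gives the log2 change of each of the 37 tested ER genes, YKL against DMSO, at 6 h and 24 h in H929 and MM1S, as deposited (left) and rescaled (right); dots mark adjusted p under 0.05 and lines part the roles. As deposited, 24 of 37 genes carry a dot for a fall in H929 at 24 h; after rescaling, 12 carry one for a fall and 7 for a rise.

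XBP1, which is not among the 38 but drives many of them, fell in H929. It stood at 1037, 1537 and 1369 FPKM in H929 YKL 6 h libraries, against 2738, 3755 and 3515 in H929 DMSO 6 h libraries. At 24 h it stood at 1666, 868 and 1764 FPKM in H929 YKL, against 3132, 3209 and 2666 in H929 DMSO. All YKL libraries of H929 were thus lower than all DMSO libraries at both times. In MM1S, XBP1 stood at 825, 763 and 790 FPKM with YKL at 6 h, against 1274, 1252 and 925 with DMSO, and at 633, 612 and 861 FPKM with YKL at 24 h, against 357, 874 and 365 with DMSO. The MM1S groups did not overlap at 6 h, with YKL lower, and overlapped at 24 h, where DMSO replicate 2 was the highest library.

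The log2 change of XBP1 as deposited was -1.35 ± 0.31 (SE; adjusted p = 0.0202, limma) in H929 at 6 h and -1.13 ± 0.31 (0.00627) at 24 h. In MM1S it was -0.52 ± 0.31 (0.283) at 6 h and 0.52 ± 0.31 (0.406) at 24 h. After rescaling, the values were -1.15 (2.2e-06) and -0.29 (0.0539) in H929, and -0.05 (0.815) and 0.79 (2.3e-05) in MM1S. Relative to the typical gene, XBP1 thus fell in H929 at 6 h, rose in MM1S at 24 h, and did not pass the test in the other 2 comparisons. The difference between the lines, H929 minus MM1S, did not pass the test as deposited: -0.83 ± 0.44 (adjusted p = 0.530) at 6 h and -1.65 ± 0.44 (0.0542) at 24 h. After rescaling it passed at both times, with -1.10 ± 0.16 (0.00156) at 6 h and -1.08 ± 0.16 (0.000252) at 24 h. Over 20 alternatives, adjusted p for the difference ranged between 0.00153 and 0.857 at 6 h and between 0.000252 and 0.179 at 24 h. As deposited, the 24 h difference passed without H929 YKL replicate 3 (0.0281) or without MM1S DMSO replicate 2 (0.00236). The call in H929 at 6 h ended without DMSO replicate 2 (0.103), DMSO replicate 3 (0.0837), YKL replicate 1 (0.0866) or YKL replicate 3 (0.0613). The call at 24 h ended without YKL replicate 2 (0.0595), and the MM1S rise at 24 h passed as deposited without DMSO replicate 2 (0.94, adjusted p = 0.0419). Over the alternatives, adjusted p ranged between 2.2e-06 and 0.103 in H929 at 6 h, 0.0039 and 0.0775 in H929 at 24 h, 0.021 and 0.831 in MM1S at 6 h, and 2.3e-05 and 0.784 in MM1S at 24 h.

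HERPUD1, a membrane protein that recruits ERAD substrates to the ubiquitin ligase, fell in every comparison, in both lines. It stood at 49.1, 82.2 and 70.6 FPKM in H929 YKL 6 h libraries, against 185, 216 and 213 in H929 DMSO, and at 52.8, 41.2 and 65.2 FPKM with YKL at 24 h, against 158, 161 and 135 with DMSO. In MM1S it stood at 76.5, 59.4 and 62 FPKM with YKL at 6 h, against 189, 189 and 171 with DMSO, and at 42.9, 51.3 and 53.4 FPKM with YKL at 24 h, against 112, 123 and 52.6 with DMSO. The YKL libraries were lower than all DMSO libraries in 3 comparisons, and in MM1S at 24 h DMSO replicate 3 reached into the YKL range. The log2 changes as deposited were -1.62 ± 0.27 (adjusted p = 0.00229, limma) at 6 h and -1.52 ± 0.27 (0.000159) at 24 h in H929. In MM1S they were -1.47 ± 0.27 (0.00164) at 6 h and -0.86 ± 0.27 (0.04999) at 24 h. The first 3 calls held in each alternative tried. The last lay at the threshold: its adjusted p ranged between 0.000938 and 0.337 over 14 alternatives, and it did not pass without DMSO replicate 1 (0.197), DMSO replicate 2 (0.191) or any 1 YKL replicate (0.2, 0.116 and 0.0872 without replicates 1, 2 and 3). After rescaling, HERPUD1 averaged 40.6 ± 3.77 FPKM in H929 YKL and 110 ± 3.96 in H929 DMSO at 6 h (SD, n = 3 each). The rescaled log2 changes were -1.42 at 6 h and -0.68 at 24 h in H929, and -1.001 at 6 h and -0.60 at 24 h in MM1S, and all passed. The response of H929 minus that of MM1S was -0.15 (95% confidence interval -0.93 to 0.63) at 6 h and -0.65 (-1.44 to 0.13) at 24 h as deposited, and neither passed the test (adjusted p = 0.941 and 0.335). In H929 both XBP1 and HERPUD1 fell as deposited at 6 h and 24 h, while in MM1S HERPUD1 fell and XBP1 did not pass the test.

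HSPA5 encodes BiP, the ER Hsp70 whose release from the sensors starts the UPR. It stood at 385, 575 and 590 FPKM in H929 YKL 6 h libraries, against 797, 1089 and 892 in H929 DMSO, and at 274, 151 and 332 FPKM with YKL at 24 h, against 996, 1063 and 938 with DMSO. In MM1S it stood at 208, 176 and 201 FPKM with YKL at 6 h, against 348, 337 and 355 with DMSO, and at 106, 108 and 128 FPKM with YKL at 24 h, against 147, 299 and 145 with DMSO. In all 4 comparisons each YKL library was lower than each DMSO library. The log2 change as deposited was -2.05 ± 0.28 (adjusted p = 1.3e-05, limma) in H929 at 24 h, the deepest fall of any member in any YKL comparison. It was -0.85 (0.118) in H929 at 6 h, -0.83 (0.0607) in MM1S at 6 h and -0.70 (0.154) in MM1S at 24 h, none of which passed. After rescaling all 4 passed: -0.66 (0.000224) at 6 h and -1.21 (1.2e-08) at 24 h in H929, and -0.36 (0.0151) at 6 h and -0.43 (0.00194) at 24 h in MM1S. At 24 h the H929 response minus that of MM1S was -0.78 ± 0.13 after rescaling (adjusted p = 0.000975), while the deposited difference of -1.35 ± 0.40 did not pass (0.0794; 0.000975 to 0.257 over 20 alternatives). The deposited difference passed without H929 YKL replicate 3 (0.0305) or MM1S DMSO replicate 2 (0.00437).

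**Figure D2:**
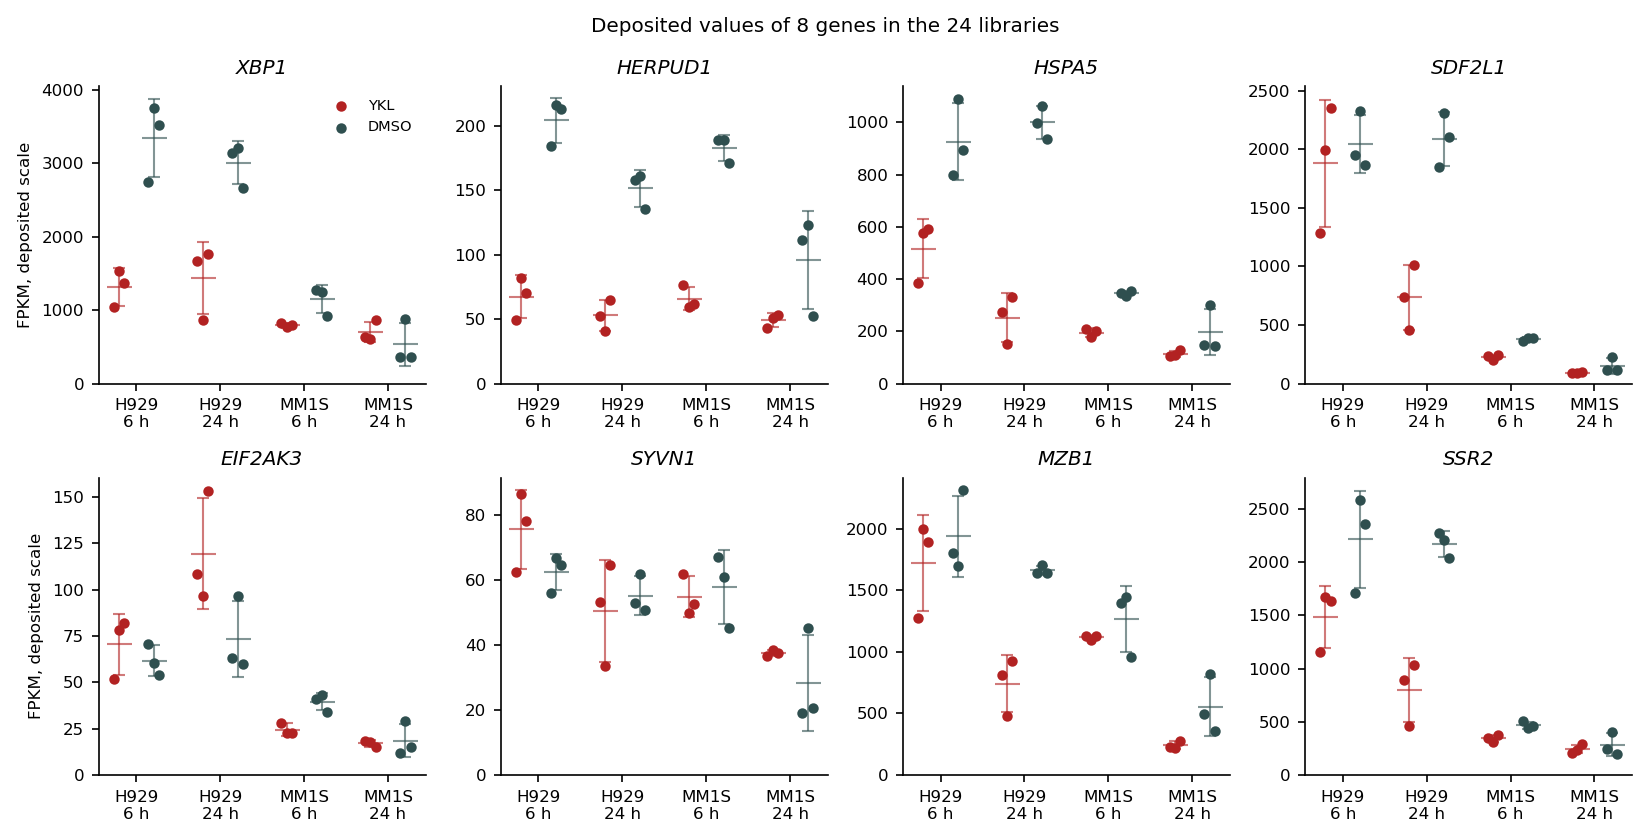
Points are single libraries (FPKM, deposited scale, linear axis from 0) of 8 genes in H929 and MM1S at 6 h and 24 h, YKL left of DMSO; bars give the mean and SD of 3 libraries. XBP1 is lower with YKL in H929 at both times, the mean of HERPUD1 is lower with YKL in every pair, and HSPA5 and SDF2L1 fall furthest in H929 at 24 h.

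**Figure D3:**
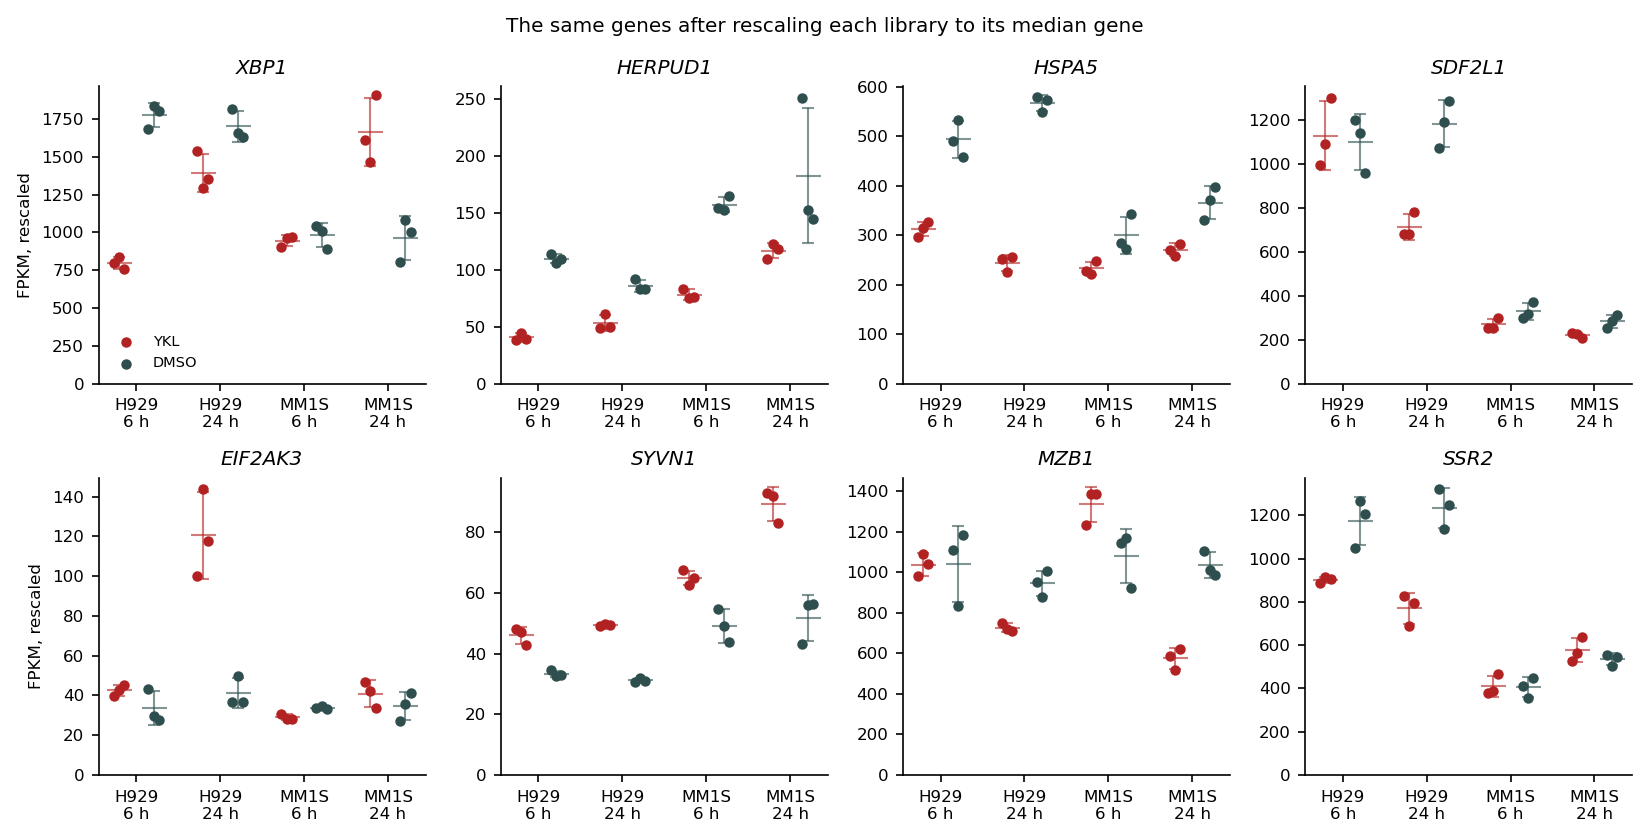
The same libraries and layout after rescaling, so that a value reads against the typical gene of its library. HERPUD1 and HSPA5 stay lower and SYVN1 is higher with YKL in all 4 pairs, EIF2AK3 is high with YKL in H929 at 24 h, and XBP1 is higher with YKL in MM1S at 24 h.

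The promoters of HERPUD1 and HSPA5, the members that fell in all 4 rescaled comparisons, are shown because both carry a response element of the UPR. The ER stress response element (ERSE) is bound by NF-Y at its CCAAT end and by ATF6 or XBP1 at its CCACG end, and ERSE-II joins the same parts more closely. RefSeq windows on GRCh38.p14, 250 bases before to 50 after the start site, were on hand for 33 of the 38 members (not DERL1, DERL3, PDIA3, SEC24D and SPCS1). They were searched on both strands for ERSE (CCAAT, any 9 bases, CCACG), ERSE-II (ATTGG, any 1 base, CCACG) and the UPR element (UPRE, TGACGTGG). The bases before the start site follow 5′ to 3′ on the strand of the gene, with the fixed letters of a matched element in capitals. HERPUD1 lies on the plus strand (chr16:56931892-56932141) with ERSE-II at position -117 from the start site, and HSPA5 on the minus strand (chr9:125241344-125241593) with ERSE at position -66.
HERPUD1: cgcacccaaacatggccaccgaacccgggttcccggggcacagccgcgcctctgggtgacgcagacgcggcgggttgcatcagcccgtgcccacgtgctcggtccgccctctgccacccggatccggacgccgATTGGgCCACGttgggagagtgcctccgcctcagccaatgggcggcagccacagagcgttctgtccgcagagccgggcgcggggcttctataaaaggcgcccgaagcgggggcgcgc
HSPA5: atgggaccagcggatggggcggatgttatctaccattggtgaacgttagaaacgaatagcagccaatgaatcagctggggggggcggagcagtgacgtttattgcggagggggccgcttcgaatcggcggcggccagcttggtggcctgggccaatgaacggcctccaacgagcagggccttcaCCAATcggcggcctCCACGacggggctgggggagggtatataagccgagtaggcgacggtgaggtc

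ERSE stood in the windows of 6 members (18.2% of 33), against 0.0916% of all 27305 genes with a window, and in that of XBP1. ERSE-II stood in 3 members (9.09%), against 0.0696% of those genes. UPRE stood in 3 (9.09%, HYOU1, SSR3 and SSR4), against 0.927%. The list was picked to hold UPR genes, so these shares are no test. The sites of the 9 members with ERSE or ERSE-II and of XBP1 are listed to show how the bases between the fixed letters vary, each written in the direction of the element.
HSPA5: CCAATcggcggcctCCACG
HSP90B1: CCAATcggaaggagCCACG
HSP90B1, nearer site: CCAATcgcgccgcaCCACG
CALR: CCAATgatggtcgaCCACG
CANX: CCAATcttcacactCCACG
PDIA6: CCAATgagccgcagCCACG
CRELD2: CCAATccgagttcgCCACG
XBP1: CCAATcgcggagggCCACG
HYOU1: ATTGGaCCACG
SDF2L1: ATTGGtCCACG
HERPUD1: ATTGGgCCACG
HYOU1 held ERSE-II at positions -185 and -79, and its UPRE overlapped 1 of them. In H929 at 24 h, 8 of the 9 members with ERSE or ERSE-II were lower and 0 higher as deposited, and 13 of the 23 tested members with a window but neither element were lower and 1 higher (35.4% and 2.67% of all genes). After rescaling, 5 of the 9 were lower and 0 higher, and 6 of the 23 were lower and 6 higher (12.5% and 20.8% of all genes). In MM1S at 24 h, 1 of the 9 and 3 of the 23 were lower as deposited, with 0 higher (6.77% and 0.684% of all genes). After rescaling, 5 of the 9 were lower and 2 higher, and 4 of the 23 were lower and 3 higher (13.3% and 14.4% of all genes). At 6 h, HERPUD1 was the single call as deposited in either line. After rescaling, 2 of the 9 were lower and 0 higher in H929 at 6 h (4.19% and 5.11% of all genes). Of the 23, 1 was lower and 2 were higher there. In MM1S at 6 h, 2 of the 9 were lower and 1 higher (7.21% and 8.25% of all genes). Of the 23, 0 were lower and 3 higher there. These are descriptions of letters in a window, and binding was not measured.

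Of the 3 sensors, EIF2AK3 and ATF6 could be tested. EIF2AK3 (PERK) was called in H929 at 24 h as deposited. It passed in 4 of 12 alternatives, which include rescaled fits. It stood at 109, 96.5 and 153 FPKM in H929 YKL 24 h libraries, against 63.4, 96.8 and 59.8 in H929 DMSO 24 h libraries. The groups overlapped by 1 library, DMSO replicate 2. Its log2 change of 0.70 ± 0.28 passed narrowly (adjusted p = 0.0494, limma; 1.8e-06 to 0.178 over 12 alternatives) and did not pass without DMSO replicate 1 (0.146), DMSO replicate 3 (0.161), YKL replicate 1 (0.0674) or YKL replicate 3 (0.178). After rescaling it was 1.53 ± 0.18 (1.8e-06), with means of 120 ± 21.9 FPKM in YKL and 41.1 ± 7.65 in DMSO (SD, n = 3 each). In the other pairs EIF2AK3 stood at 51.8, 78.1 and 82 FPKM in H929 YKL 6 h, against 70.6, 60.6 and 53.9 in DMSO, at 28.3, 22.5 and 22.7 in MM1S YKL 6 h, against 41.3, 43.2 and 34.3 in DMSO, and at 18.4, 17.7 and 15.1 in MM1S YKL 24 h, against 12, 28.9 and 15 in DMSO. None of these passed on either scale. At 24 h the response of H929 exceeded that of MM1S by 1.28 ± 0.25 after rescaling (0.00258), and by 0.73 ± 0.39 as deposited (0.299).

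ATF6 stood at 10.3, 13.9 and 14.4 FPKM in H929 YKL 6 h, against 13.7, 12.9 and 15.3 in DMSO, and at 6.87, 5.3 and 8.57 in H929 YKL 24 h, against 8.91, 13 and 10.2 in DMSO. In MM1S it stood at 9.3, 8.44 and 8.79 FPKM with YKL at 6 h, against 12.8, 16 and 10.5 with DMSO, and at 4.53, 5.86 and 5.63 with YKL at 24 h, against 8.09, 8.39 and 3.53 with DMSO. YKL libraries were all lower in H929 at 24 h and MM1S at 6 h, but no comparison passed (log2 changes -0.12, -0.57, -0.50 and -0.21); the H929 fall at 24 h passed without YKL replicate 3 (-0.72, adjusted p = 0.0408, limma; 0.0408 to 0.530 over 12 alternatives). ERN1, which encodes IRE1, lay between 0.122 and 1.37 FPKM over the 24 libraries, with 2 of them at 1 FPKM or more, and was not tested. Its values were 0.543, 0.316 and 0.709 FPKM in H929 YKL 6 h and 0.249, 0.477 and 0.748 in DMSO, and 0.707, 0.298 and 0.58 in H929 YKL 24 h and 0.488, 0.574 and 0.208 in DMSO. In MM1S they were 1.37, 1.25 and 0.517 FPKM with YKL at 6 h and 0.458, 0.986 and 0.928 with DMSO, and 0.546, 0.317 and 0.324 with YKL at 24 h and 0.658, 0.28 and 0.122 with DMSO. The groups of ERN1 overlapped in each pair.

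The Hsp70, Hsp90 and J-domain genes were grouped with SDF2L1, which is none of these. Of these 7, 4 were lower in H929 at 24 h as deposited (35.4% of all genes), HSPA5, SDF2L1, HSP90B1 and DNAJB11. After rescaling 2 were lower, HSPA5 and SDF2L1, and 2 higher, DNAJB9 and DNAJC3 (12.5% and 20.8% of all genes), with a median of 0.11. SDF2L1, a partner of the J proteins, stood at 737, 456 and 1015 FPKM in H929 YKL 24 h, against 1848, 2308 and 2104 in DMSO, with no overlap. After 6 h it stood at 1289, 1997 and 2357 FPKM in H929 YKL, against 1951, 2331 and 1866 in DMSO, and the groups overlapped. In MM1S the values were 233, 202 and 243 FPKM with YKL at 6 h, against 364, 392 and 387 with DMSO, and 90.1, 94 and 94.3 with YKL at 24 h, against 112, 229 and 114 with DMSO. Its log2 change in H929 at 24 h was -1.57 ± 0.29 (adjusted p = 0.000227, limma) and -0.73 after rescaling (0.000105). In MM1S it was -0.75 (0.0913) at 6 h and -0.62 (0.235) at 24 h, and of the rescaled changes the one at 24 h passed (-0.35, 0.039).

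HSP90B1, the ER Hsp90 called GRP94, stood at 327, 249 and 341 FPKM in H929 YKL 24 h, against 510, 571 and 456 in DMSO. Its log2 change of -0.75 ± 0.27 (0.0307) turned to 0.09 after rescaling (0.629), so the fall did not exceed that of the typical gene. The call ended without DMSO replicate 1 (0.0681), DMSO replicate 2 (0.111) or YKL replicate 2 (0.131), with adjusted p of 0.0285 to 0.629 over 12 alternatives. Elsewhere HSP90B1 overlapped between groups: 359, 518 and 497 FPKM in H929 YKL 6 h, against 430, 540 and 584 in DMSO, 520, 527 and 386 in MM1S YKL 6 h, against 700, 644 and 474 in DMSO, and 248, 251 and 262 in MM1S YKL 24 h, against 303, 556 and 237 in DMSO. DNAJB9 (ERdj4), a J protein that guides substrates to ERAD, stood in H929 at 24 h at 35.9, 24.2 and 42 FPKM in YKL, against 40.7, 37 and 30.5 in DMSO, with overlap. The log2 change was -0.11 as deposited (0.798) and 0.70 after rescaling (0.000916), a reversed direction. Its other values were 36.2, 49 and 41 FPKM in H929 YKL 6 h, against 31.7, 44.5 and 40.2 in DMSO, 25.2, 26.4 and 22.1 in MM1S YKL 6 h, against 34, 35.4 and 23.4 in DMSO, and 23.7, 25.9 and 28.2 in MM1S YKL 24 h, against 29.9, 39.3 and 14.6 in DMSO. None of those 3 comparisons passed on either scale. DNAJC3 (p58IPK), an inhibitor of PERK, averaged 15.6 ± 3.42 FPKM in H929 YKL 6 h and 13.2 ± 1.69 in DMSO (SD, n = 3 each). It was higher after rescaling in H929 at 6 h (0.37, adjusted p = 0.0459) and 24 h (0.44, 0.00565) and in MM1S at 6 h (0.38, 0.0286), and did not pass as deposited. HYOU1, the ER chaperone GRP170, was called once, higher in MM1S at 24 h after rescaling (0.45, 0.0494).

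Of the 6 lectin chaperones and disulfide isomerases, 5 were lower as deposited in H929 at 24 h (35.4% of all genes) and 2 after rescaling (12.5% of all genes). PDIA4 did not pass (-0.59, adjusted p = 0.106, limma). None passed as deposited in the other 3 comparisons. CALR (calreticulin), a lectin chaperone of the ER lumen, averaged 645 ± 227 FPKM in H929 YKL 24 h and 1592 ± 209 in DMSO (SD, n = 3 each), a log2 change of -1.36 ± 0.30 (0.00136) and of -0.51 after rescaling (0.0101). CANX (calnexin), its membrane-bound relative, averaged 111 ± 36.9 and 241 ± 23 FPKM, with -1.16 ± 0.27 (0.00208) and -0.33 after rescaling (0.00384). PDIA3, PDIA6 and P4HB, which form and shuffle disulfide bonds, changed by -0.89, -0.90 and -0.99 as deposited and by -0.06, -0.06 and -0.15 after rescaling, where they did not pass. In MM1S at 24 h, CANX (-0.34), PDIA6 (-0.32) and P4HB (-0.29) were lower after rescaling and not as deposited. PDIA6 was higher in MM1S at 6 h after rescaling (0.36, 0.0286), and its 24 h response minus its 6 h response there was -0.69 after rescaling (0.00643).

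MZB1, an ER protein of B cells and plasma cells that aids antibody assembly, was the member with the smallest p in MM1S at 24 h. It stood there at 230, 217 and 279 FPKM in YKL libraries, against 492, 817 and 359 in DMSO libraries, and in H929 at 24 h at 815, 483 and 925 FPKM, against 1636, 1705 and 1643. At 6 h it stood at 1271, 1999 and 1888 FPKM in H929 YKL, against 1800, 1699 and 2309 in DMSO, and at 1129, 1097 and 1126 FPKM in MM1S YKL, against 1399, 1443 and 958 in DMSO. The groups were apart at 24 h and overlapped at 6 h in both lines. Its log2 change at 24 h was -1.12 ± 0.28 (adjusted p = 0.015, limma) in MM1S and -1.22 ± 0.28 (0.00204) in H929, and -0.85 (1.9e-05) and -0.38 (0.0187) after rescaling. The MM1S call ended without DMSO replicate 2 (0.0868), YKL replicate 1 (0.0675) or YKL replicate 2 (0.0743), with a range of 1.9e-05 to 0.138 over 14 alternatives. MANF, a secreted ER stress protein, stood at 235, 239 and 295 FPKM in H929 YKL 24 h, against 570, 795 and 569 in DMSO, and at 55.8, 59.2 and 66.3 in MM1S YKL 24 h, against 91.5, 174 and 85.5 in DMSO. At 6 h it stood at 602, 975 and 919 FPKM in H929 YKL, against 866, 807 and 901 in DMSO, and at 212, 180 and 176 in MM1S YKL, against 303, 380 and 221 in DMSO. It fell at 24 h in both lines, by -1.32 ± 0.27 (0.000586) in H929 and -0.87 ± 0.27 (0.0473) in MM1S. The MM1S call ended without DMSO replicate 2 (0.216) or any 1 YKL replicate (0.167, 0.135 and 0.0811), with a range of 0.0072 to 0.336 over 14 alternatives. CRELD2, another ER stress protein, was lower in H929 at 24 h as deposited (-0.88, 0.0305) but not after rescaling (-0.04, 0.853), and was higher in MM1S at 24 h after rescaling (0.35, 0.0449).

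Of the 7 translocon genes, 6 were lower as deposited in H929 at 24 h (35.4% of all genes). After rescaling 4 were lower (12.5% of all genes), SEC61A1, which forms the channel itself, and SSR1, SSR2 and SSR3 of the TRAP complex beside it. SEC61B, a small subunit, was higher, 1 of 7 genes where 20.8% of all genes were higher. SSR2 stood at 897, 463 and 1036 FPKM in H929 YKL 24 h, against 2272, 2205 and 2037 in DMSO, and at 1152, 1676 and 1638 in H929 YKL 6 h, against 1706, 2585 and 2355 in DMSO. In MM1S it stood at 345, 309 and 379 FPKM with YKL at 6 h, against 504, 439 and 464 with DMSO, and at 207, 236 and 288 with YKL at 24 h, against 246, 408 and 200 with DMSO. The MM1S groups overlapped at 24 h only. Its log2 change in H929 at 24 h was -1.52 ± 0.29 (adjusted p = 0.000301, limma), and -0.68 after rescaling (7.1e-05). At 6 h it was -0.57 (0.352), and -0.38 after rescaling (0.0354).

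SSR3 stood at 216, 90.6 and 222 FPKM in H929 YKL 24 h, against 548, 530 and 445 in DMSO, a change of -1.62 ± 0.32 (0.000519) as deposited and of -0.79 after rescaling (0.000711). Its other values were 211, 339 and 296 FPKM in H929 YKL 6 h, against 281, 542 and 415 in DMSO, 113, 97.2 and 109 in MM1S YKL 6 h, against 140, 132 and 156 in DMSO, and 44.9, 63.4 and 68.5 in MM1S YKL 24 h, against 84.1, 142 and 65.4 in DMSO, and none of these passed. SSR1 changed by -1.34 in H929 at 24 h (0.000545) and SEC61A1 by -1.38 (0.00169). SSR4, the other TRAP subunit, changed by -0.86 as deposited (0.0231) and by -0.02 after rescaling, apart from SSR1 to SSR3.

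SEC61G, the smallest channel subunit, stood at 5539, 3647 and 5503 FPKM in H929 YKL 24 h, against 8166, 7844 and 6721 in DMSO, and at 1216, 1242 and 1465 in MM1S YKL 24 h, against 2111, 3737 and 1565 in DMSO. The 6 h values were 5850, 7303 and 7329 FPKM in H929 YKL, against 7903, 8798 and 7430 in DMSO, and 3084, 2994 and 2887 in MM1S YKL, against 3766, 3975 and 4005 in DMSO. YKL libraries were lower in all 4 pairs with no overlap. In H929 at 24 h its change of -0.65 ± 0.25 (adjusted p = 0.0452, limma) turned to 0.19 after rescaling (0.228), and in MM1S at 24 h -0.83 ± 0.25 (0.0464) became -0.55 (0.0012). The H929 call ended without DMSO replicate 1 (0.124), 2 (0.118) or 3 (0.0539) or YKL replicate 2 (0.214), and the MM1S call without DMSO replicate 1 (0.0687) or 2 (0.222) or any 1 YKL replicate (0.167, 0.151 and 0.0716). Over the alternatives, adjusted p ranged between 0.0361 and 0.228 in H929 and between 0.00104 and 0.386 in MM1S.

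Signal peptidase, the enzyme that removes signal peptides, was represented by 3 noncatalytic subunits. SPCS2 and SPCS3 fell as deposited in H929 at 24 h, by -0.90 (adjusted p = 0.0164, limma) and -1.05 (0.00677), and did not pass after rescaling. SPCS1 averaged 729 ± 196 FPKM in H929 YKL 24 h and 828 ± 73.8 in DMSO (SD, n = 3 each), a change of -0.22 that did not pass. After rescaling SPCS1 was higher in H929 at 24 h (0.62, 6.8e-05), MM1S at 6 h (0.39, 0.0126) and MM1S at 24 h (0.41, 0.00434), a direction opposite to the deposited one in the first 2 of these. The COPII gene SEC24D, a cargo adaptor of vesicles leaving the ER, stood at 3.94, 4.09 and 5.93 FPKM in H929 YKL 24 h, against 6.76, 12 and 7.38 in DMSO. At 6 h it stood at 13.3, 16.9 and 16.2 in H929 YKL, against 12.5, 10 and 10.4 in DMSO. In MM1S it stood at 2.83, 2.91 and 3.01 FPKM with YKL at 6 h, against 2.98, 5.11 and 2.63 with DMSO, and at 1.35, 1.24 and 0.717 with YKL at 24 h, against 2, 2.28 and 1.44 with DMSO. It was lower in H929 at 24 h as deposited (-0.76, 0.0137) and not after rescaling (-0.03, 0.937), and the call ended without DMSO replicate 2 (0.114), YKL replicate 1 (0.0524) or YKL replicate 2 (0.0551), with a range of 0.00671 to 0.942 over 12 alternatives.

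Of the 8 ERAD genes, 3 were lower as deposited in H929 at 24 h, HERPUD1, DERL2 and DERL3, a share near the 35.4% of all genes. After rescaling 2 were lower, HERPUD1 and DERL3, and 2 higher, SYVN1 and OS9 (12.5% and 20.8% of all genes). DERL3, a derlin prominent in secretory cells, stood at 26, 15 and 29.7 FPKM in H929 YKL 24 h, against 58.1, 52.8 and 45.9 in DMSO, and at 10.9, 11.9 and 12.1 in MM1S YKL 24 h, against 16.2, 36.2 and 17.3 in DMSO. After 6 h it stood at 31.5, 41.6 and 42.1 FPKM in H929 YKL, against 35, 41.1 and 40.3 in DMSO, and at 23.1, 21.6 and 30.7 in MM1S YKL, against 37.9, 32.1 and 29.8 in DMSO. The groups were apart at 24 h and overlapped at 6 h. The 24 h changes were -1.16 (adjusted p = 0.00189, limma) in H929 and -0.84 (0.0589) in MM1S, and -0.35 (0.0401) and -0.60 (0.00132) after rescaling. The MM1S change passed as deposited without DMSO replicate 1 (0.0334) or DMSO replicate 3 (0.0238), with a range of 0.000492 to 0.331 over 14 alternatives.

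SYVN1, the ubiquitin ligase HRD1 at the centre of ERAD, did not pass the test on the deposited scale in any comparison. It averaged 75.6 ± 12.1 FPKM in H929 YKL 6 h and 62.4 ± 5.6 in DMSO, and 50.4 ± 15.7 in H929 YKL 24 h and 55.1 ± 5.94 in DMSO (SD, n = 3 each). In MM1S it averaged 54.7 ± 6.31 FPKM with YKL at 6 h and 57.8 ± 11.2 with DMSO, and 37.4 ± 0.928 with YKL at 24 h and 28.3 ± 14.7 with DMSO. After rescaling SYVN1 was higher in all 4 comparisons, by 0.45 (adjusted p = 0.00682, limma) at 6 h and 0.65 (4.1e-05) at 24 h in H929, and by 0.40 (0.0101) at 6 h and 0.78 (5.9e-06) at 24 h in MM1S, the deposited sign being negative in H929 at 24 h and MM1S at 6 h. OS9, a lectin that hands misfolded glycoproteins to HRD1, was higher after rescaling at 24 h in H929 (0.73, 9.1e-06) and MM1S (0.75, 8.4e-06). SEL1L, the partner of HRD1, was higher after rescaling in MM1S at 24 h (0.43, 0.0247). It stood at 49.4, 66.2 and 64.7 FPKM in H929 YKL 6 h, against 58.3, 93.1 and 75.3 in DMSO, at 60.2, 34.7 and 75.3 in H929 YKL 24 h, against 76.3, 85.1 and 75.3 in DMSO, at 17.2, 15.6 and 17.1 in MM1S YKL 6 h, against 28, 29.3 and 32.5 in DMSO, and at 13.4, 14.9 and 16.9 in MM1S YKL 24 h, against 8.85, 22.8 and 11.8 in DMSO. No deposited change of SEL1L passed.

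EDEM1, a mannosidase-like protein that takes glycoproteins out of the folding cycle and a textbook XBP1 target, stood at 11.8, 18.5 and 14.2 FPKM in H929 YKL 6 h, against 12.3, 7.06 and 10.3 in DMSO, and at 6.65, 7.16 and 7.46 in H929 YKL 24 h, against 7.78, 8.03 and 6.15 in DMSO. In MM1S it stood at 10.1, 7.89 and 4.29 FPKM with YKL at 6 h, against 12.9, 13.5 and 6.89 with DMSO, and at 3.12, 2.23 and 2.67 with YKL at 24 h, against 3.79, 6.09 and 2.04 with DMSO. All 4 pairs overlapped and no change passed. A link of EDEM1 to the XBP1 values above was not tested. The H929 changes were 0.55 ± 0.31 at 6 h and -0.03 ± 0.31 at 24 h, and the 24 h value was 0.68 after rescaling (0.0561).

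Responses were compared between the lines directly. As deposited, 0 members differed at 6 h and 0 at 24 h by limma at adjusted p under 0.05. Of all genes, 0.137% were higher and 0.0322% lower at 6 h, and 0.29% higher and 1.07% lower at 24 h. At an unadjusted p under 0.05, 2 and 9 of the 37 members differed, as did 1283 and 2493 of all 12418 genes. After rescaling, 0 differed at 6 h (0.725% of all genes higher, 0.411% lower) and 6 at 24 h (8.04% higher, 4.32% lower). EIF2AK3 (1.28), SEC61G (0.74, adjusted p = 0.00581) and SEC61B (0.53, 0.0188) changed more upward in H929 than in MM1S, and HSPA5 (-0.78), SSR2 (-0.79, 0.00267) and SEC61A1 (-0.77, 0.0187) more downward. The 24 h count as deposited was 14, all more downward in H929, without MM1S DMSO replicate 2, and 2 without H929 YKL replicate 3. The shares of all genes in these fits are not given here, so 14 is not read as particular to the members. The falls at 24 h were partly shared: of the 12 members lower in H929 and the 10 lower in MM1S after rescaling, 7 were the same (58.3% and 70%), namely CANX, DERL3, HERPUD1, HSPA5, MANF, MZB1 and SDF2L1. Of the 7 higher in H929 and the 6 higher in MM1S, 3 were the same (42.9% and 50%), namely OS9, SPCS1 and SYVN1. Of all genes, 12.5% were lower and 20.8% higher in H929, and 13.3% lower and 14.4% higher in MM1S. The overlap between the lines over all genes was not counted, so whether the members share more is not known. On the same scale and at the same time, XBP1 did not pass the test in H929 and was higher in MM1S, by the values above.

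**Figure D4:**
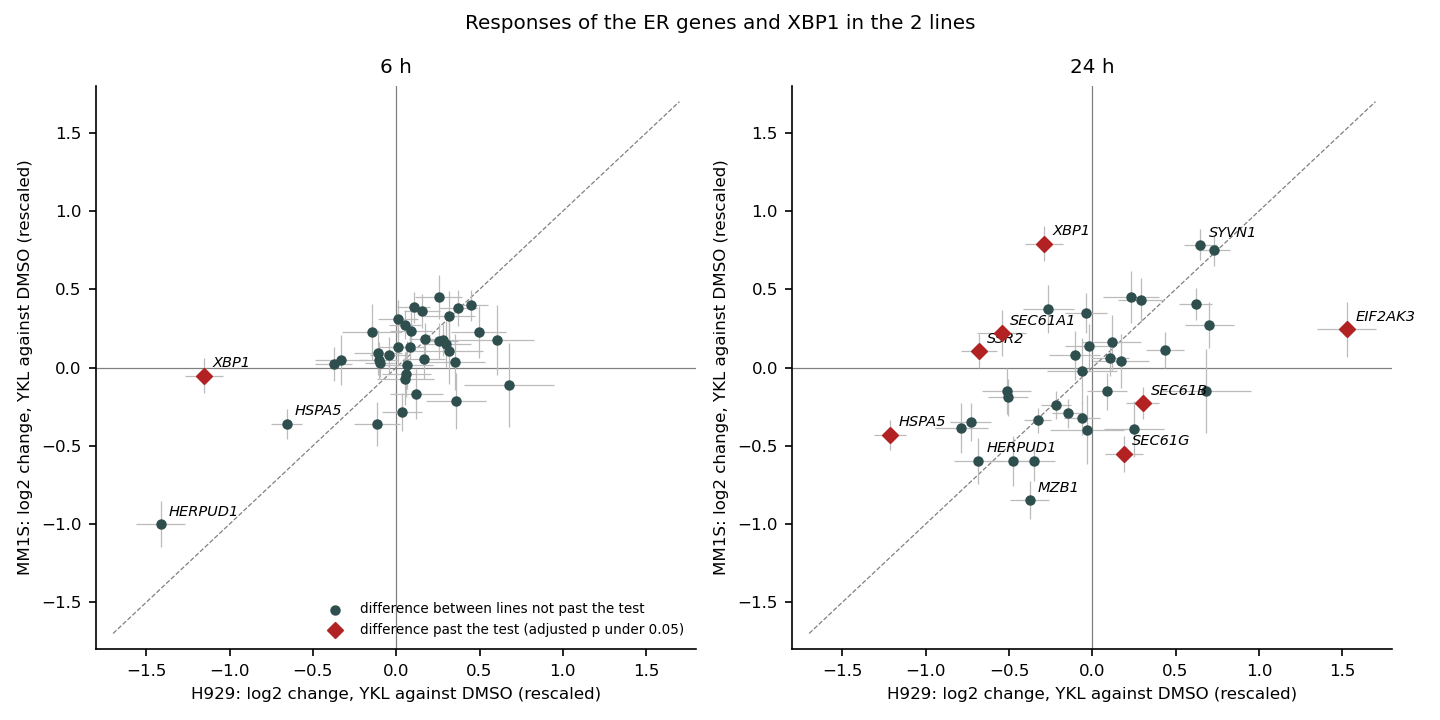
Each point is 1 of the 37 ER genes or XBP1, with its rescaled log2 change, YKL against DMSO, in H929 (x axis) and MM1S (y axis) at 6 h and 24 h; bars are standard errors, the dashed line marks equal change, and diamonds mark a difference between lines at adjusted p under 0.05. HERPUD1 is lowest in both lines at 6 h, XBP1 stands left of the line at both times, and EIF2AK3 stands apart at 24 h.

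Between the times, 4 members had a lower response at 24 h than at 6 h in H929 as deposited, SDF2L1, MANF, SEC24D and DERL2, and 0 a higher one (6.18% and 0.29% of all genes). After rescaling 3 were lower, SDF2L1 (-0.76, adjusted p = 0.00616, limma), HSPA5 (-0.55, 0.0105) and CANX (-0.41, 0.0248), and 4 higher, EIF2AK3, SPCS1, HERPUD1 and OS9 (4.66% and 5.77% of all genes). HERPUD1 thus fell less at 24 h than at 6 h relative to the typical gene (difference 0.73, 0.0268), and XBP1 did so too (0.86, 0.00127). In MM1S, 0 differed as deposited by limma (0.0322% of all genes were higher and 0.0483% lower). At an unadjusted p under 0.05, 2 of the 37 members differed there, and 1126 of all 12418 genes. After rescaling 6 were lower, led by MZB1 (-1.16, 0.000128), and 2 higher, SEL1L (0.79, 0.0124) and OS9 (0.56, 0.0119), against 6.28% and 4.3% of all genes. The deposited count in H929 was 0 without 6 h DMSO replicate 3, without 6 h YKL replicate 2 or 3, without 24 h DMSO replicate 2 or without 24 h YKL replicate 1 or 2. It was 1 without 6 h DMSO replicate 1 or 2 or 24 h DMSO replicate 3, and 2 without 24 h DMSO replicate 1. It was 8 without 6 h YKL replicate 1 and 9 without 24 h YKL replicate 3. The shares of all genes with these libraries left out are not given here.

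The lines differed already with DMSO. Over both times, 31 of 37 members were higher in H929 than in MM1S as deposited and 0 lower (61.7% and 10.3% of all genes), with a median difference of 1.40 log2, against 0.71 for all genes. After rescaling 19 were higher and 12 lower (26.6% and 41.1% of all genes), with medians of 0.25 for the members and -0.18 for all genes. Higher in H929 on both scales were SDF2L1 (3.13 as deposited and 1.90 rescaled), SSR2 (2.61 and 1.37) and SSR4 (2.49 and 1.26), and with them the chaperone HYOU1 and SSR1, SSR3 and SEC61A1 of the translocon. Lower in H929 after rescaling were SPCS2 (-1.20), HSP90B1 (-1.06) and DNAJC3 (-0.81), none of them called lower as deposited, and 6 of the 8 ERAD genes, HERPUD1, OS9, EDEM1, SYVN1, DERL3 and DERL1. XBP1 was higher in H929 on both scales (2.08, adjusted p = 1.4e-08, limma, and 0.84, 1e-08).

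**Figure D5:**
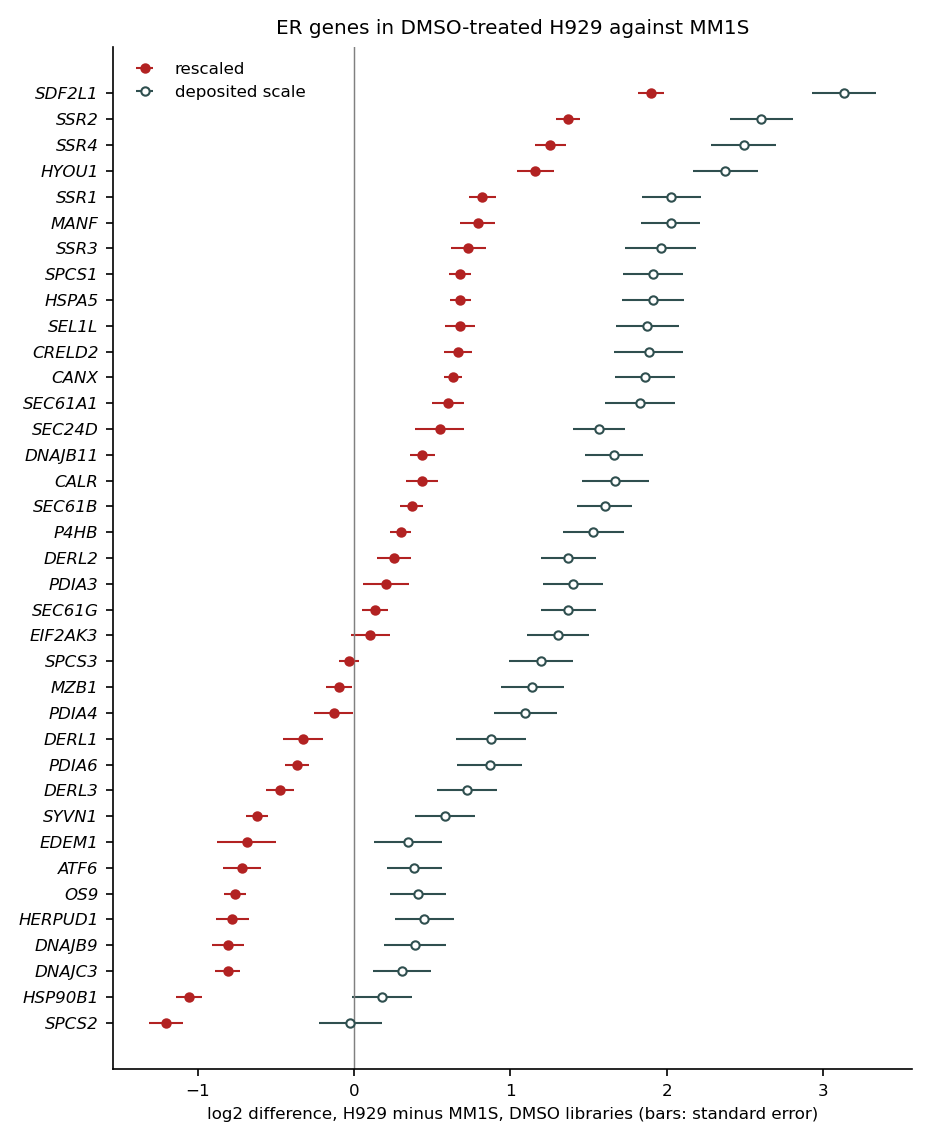
Points give the log2 difference, H929 minus MM1S, of each tested ER gene over the DMSO libraries of both times, rescaled (filled) and as deposited (open), with standard errors. SDF2L1, SSR2 and SSR4 stand furthest to the right, and SPCS2, HSP90B1 and DNAJC3 furthest to the left.

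The MM1S controls differed between the times, and the H929 controls did not. The median scale factor of MM1S DMSO libraries was 1.22 at 6 h and 0.445 at 24 h. Whether time in culture or the amount of RNA lay behind the difference was not tested. In H929 DMSO libraries 0 members differed between 24 h and 6 h by limma on either scale. Of all genes 0.105% were higher and 0.0403% lower as deposited, and 0.644% and 0.378% rescaled. At an unadjusted p under 0.05 as deposited, 0 of the 37 members and 895 of all 12418 genes differed. In MM1S DMSO libraries 32 members were lower at 24 h than at 6 h and 0 higher as deposited (56% and 0.258% of all genes). After rescaling 10 were higher and 2 lower (10.3% and 5.39% of all genes). The 2 were DERL2 and SSR4, and the 10 were led by DNAJB9 (0.93, adjusted p = 0.000557), DERL3 (0.56, 0.00691) and SPCS3 (0.36, 0.0116). The MM1S responses at 24 h are thus measured against controls that differed from those at 6 h.

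Other genes of the pathway, 94 listed in 6 groups of which 89 were tested, give the setting. In H929 at 6 h, 2 were lower, XBP1 and ATF4 (1.16% of all genes). In H929 at 24 h 39 were lower (35.4% of all genes), in MM1S at 6 h 7 (10%), and in MM1S at 24 h 6 (6.77%), and 0 were higher in each. The median log2 change of the 89 was -0.62 in H929 at 24 h, against -0.46 for all genes. After rescaling, 4 were lower and 6 higher in H929 at 6 h (4.19% and 5.11% of all genes), 16 lower and 22 higher in H929 at 24 h (12.5% and 20.8%), 4 lower and 5 higher in MM1S at 6 h (7.21% and 8.25%), and 13 lower and 15 higher in MM1S at 24 h (13.3% and 14.4%). The counts in MM1S as deposited and the rescaled counts thus lay near the shares of all genes. Of the 12 UPR transcription factors and feedback genes, 7 were lower and 0 higher in H929 at 24 h as deposited, and 3 were lower and 5 higher after rescaling, with a rescaled median of -0.02. ATF4, the factor of the PERK branch, fell to 191, 85.1 and 231 FPKM in H929 YKL 24 h, against 787, 769 and 725 in DMSO, and to 250, 369 and 374 in H929 YKL 6 h, against 580, 969 and 798 in DMSO. Its log2 changes were -2.28 ± 0.31 (adjusted p = 1.1e-05, limma) and -1.23 ± 0.31 (0.0357), and in MM1S -0.61 (0.208) at 6 h and -0.68 (0.227) at 24 h. DDIT3 (CHOP, -1.68, 0.000289) and TRIB3 (-1.39, 0.00194), both downstream of ATF4, fell in H929 at 24 h. In MM1S, CREB3L2 (-1.19, 0.0117) and CEBPB (-0.84, 0.0427) fell at 6 h, and CEBPB (-1.44, 0.00098), ATF3 (-1.13, 0.0262) and TRIB3 (-1.11, 0.0353) at 24 h. The rise of EIF2AK3 in H929 at 24 h thus stood beside a fall of ATF4, DDIT3 and TRIB3 in the same libraries.

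The remaining groups are given for H929 at 24 h as deposited, where 35.4% of all genes were lower, a share near that of most of these groups, and with their rescaled counts, where 12.5% of all genes were lower and 20.8% higher. Of 15 genes of the signal recognition particle and targeting 8 were lower (rescaled 5 lower and 3 higher), with SRP72 (-1.50, adjusted p = 8e-05, limma), SERP1 (-1.45, 0.000254) and SEC63 (-1.17, 0.00136) first. Of 10 tested oligosaccharyltransferase and N-glycosylation genes 4 were lower (rescaled 2 lower and 3 higher), among them ALG5 (-1.50, 0.000145), RPN1 (-1.21, 0.000779) and STT3A (-1.09, 0.00247). Of 12 tested genes of oxidative folding 5 were lower (rescaled 2 lower and 2 higher), among them ERP29 (-1.38, 0.00149), PRDX4 (-1.23, 0.00228) and PDIA5 (-0.80, 0.00758). Of 22 tested COPII and ER to Golgi genes 8 were lower (rescaled 1 lower and 3 higher), led by the cargo receptor LMAN1 (-1.26, 0.000874), SAR1A (-0.99, 0.00397) and KDELR2 (-1.01, 0.00558). Of 18 other ERAD genes 7 were lower (rescaled 3 lower and 6 higher), among them AUP1 (-1.46, 0.000305), UBE2G2 (-1.41, 0.00165) and VCP (-1.23, 0.00278). In MM1S at 6 h, PPIB (-1.48, 0.0128), SRP9 (-0.86, 0.0292), SRP54 (-0.81, 0.0297), ARFGAP3 (-0.90, 0.0368) and UBE2J1 (-0.88, 0.0361) were the others called. In MM1S at 24 h they were PDIA5 (-0.83, 0.0221), FKBP11 (-1.33, 0.0275) and PRDX4 (-0.98, 0.0422), all of oxidative folding and prolyl isomerases.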

How the data were processed

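RNA of H929 and MM1S cells was made into QuantSeq 3′ libraries, per the labels' protocols. The submitters' processing notes name HISAT2, Cuffnorm and the build hg19, with no versions; per the submitters' processing notes alone, their roles are not given. The authors deposited FPKM, 1 table per library with 26341 entries (92 ERCC spike-ins). Spike-ins had median log2 deviations of -0.042 to 0.09 across libraries, as after scaling to them, a step not given in the sources used here. Division by gene length does not suit 3′ reads. It drops out of plain ratios of a gene, but not out of the 1 FPKM filter or of log2(FPKM + 1). No value was 0, and the sequencing depth is unknown, so that no counting interval is given. No 2 libraries were identical.

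From these values, log2(FPKM + 1) was tested for the 12418 genes that reached 1 FPKM in 3 or more of the 24 libraries. The test was limma (version 3.58.1, with a mean-variance trend, under R 4.3.3), two-sided, in 1 fit of 8 group means with 11 comparisons and Benjamini-Hochberg adjustment within each. Fold changes on this scale understate those of low genes. Rescaling divided each library by its median ratio over the genes whose geometric mean reached 5 FPKM and kept the same genes. Errors of log2 changes are standard errors. Replicate numbers come from the labels. The method was tested on simulated data with independent noise in each library. That simulation held no shift of library scale, so it does not show how the method handles such shifts.

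The 38 members and the lists were chosen with earlier results of these data known. Values in every library are given for HSPA5, HSP90B1, DNAJB9, SDF2L1, HERPUD1, EDEM1, ERN1, ATF6, EIF2AK3, DERL3, MZB1 and XBP1, and for the 5 members with the smallest p per YKL comparison. From other pathway lists up to 3 called genes with the smallest p per comparison are named, and from the remaining comparisons up to 3 members of each sign. Other named members were chosen after their values were seen. ERO1L, ERO1LB and SELS were not analysed here, and TUSC3 and KDELR3 did not pass the filter. Alternatives were rescaling, a pseudocount of 0.5, no filter, a replicate block, fits on the libraries of 1 comparison, and leaving out single libraries or the 2 with scattered spike-ins (the last, with rescaling, chosen after seeing the data). Promoter windows came from RefSeq (GRCh38.p14), searched in Python 3.11.15.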

Additional observations from a re-analysis of the deposited data

Results flagged for a closer look

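The response of H929 to YKL differed between 24 h and 6 h for 4 members on the deposited scale, by an interaction term in limma. The log2 change at 24 h minus that at 6 h was -1.41 for SDF2L1 (adjusted p = 0.0407), -1.24 for MANF (0.0487), -1.22 for SEC24D (0.0313) and -1.19 for DERL2 (0.0456). SDF2L1 changed by -1.57 at 24 h and -0.16 at 6 h, and SEC24D by -0.76 at 24 h and 0.46 at 6 h. After rescaling, the difference passed for SDF2L1 (0.00616), but not for MANF (0.102), SEC24D (0.239) or DERL2 (0.105). The deposited count of such members ranged between 0 and 9 when 1 library was left out. The part of library scale in these differences was not tested.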

How the results depend on the processing

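Counts of called members under other settings were as follows. Rescaling gave 5 in H929 at 6 h, 7 in MM1S at 6 h, 16 in MM1S at 24 h, 6 for the difference between lines at 24 h, 7 and 8 for the difference between times in H929 and MM1S, and 12 for MM1S DMSO over time. A pseudocount of 0.5 gave 2 for the times in H929. Without a filter, MM1S at 24 h gave 1 and the times in H929 gave 0. Replicate numbers did not pair the samples: same-numbered deviations correlated at -0.11 to 0.18, and only 1 of 12 pairs passed 0.1. With a replicate block, MM1S at 24 h gave 1 and the times in H929 gave 1, and with the block and rescaling the counts were 4, 6, 13, 6, 7, 8 and 11 in the order of the first list. Fits on the libraries of the comparison alone gave 10 in MM1S at 6 h, 0 in MM1S at 24 h, 0 for the times in H929 and 20 for MM1S DMSO over time. Without the 2 libraries of uncertain spike-in scale, MM1S at 24 h gave 2, and with rescaling the MM1S counts were 8 at 6 h, 16 at 24 h, 6 for the lines at 24 h, 8 for the times and 7 for DMSO over time. Leaving out 1 library gave 1 to 1 in H929 at 6 h, 14 to 29 in H929 at 24 h, 1 to 1 in MM1S at 6 h, 0 to 8 in MM1S at 24 h, 0 to 0 and 0 to 14 for the lines at 6 h and 24 h, 0 to 9 and 0 to 1 for the times in H929 and MM1S, 29 to 36 for H929 against MM1S, 0 to 0 for H929 DMSO over time and 22 to 36 for MM1S DMSO over time. The cause was not tested in any of these. Of these settings, the shares of all genes are given above for rescaling only.

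Between the 2 scales the sign of the change differed for 14, 15, 28 and 10 of the 37 tested members in H929 at 6 h and at 24 h and in MM1S at 6 h and at 24 h. In H929 at 24 h these include, among genes with values in every library, HSP90B1 (0.089 rescaled), DNAJB9 (0.70), SEC61G (0.19), EDEM1 (0.68), ATF6 (0.17) and SEL1L (0.29), with the same values under the block, where EDEM1 also passed the test. Without the libraries of uncertain scale, rescaled DNAJB9 was 0.47 in MM1S at 24 h. Of the single-gene values under other settings, 1852 kept their sign and their side of the threshold, 102 no longer passed, 93 newly passed, 155 changed sign with neither value past the test, and 8 changed sign with a value past it. With 3 libraries per group, 2 scales that disagree on many calls, and labelled dose tied to line, neither an absolute nor a relative change of a gene near the threshold is settled, and values near 1 FPKM carry the least precision.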
